A study of Mus musculus with 33 samples.

Results

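The genes described here are the orphan G protein-coupled receptor genes of mouse, taken as every gene whose symbol in the deposited tables is Gpr followed by a number and at most 1 letter. Among the gene symbols of these single-cell data, 77 matched, and Gpr34 and Gpr37 were left out, so that 75 genes of 18853 were members. The rule uses the name alone. Of the 75 members, 74 had at least 1 transcript in the kept cells, and Gpr128 had 0. A total of 43 members had at least 30 transcripts, of which 40 are described by name, while 32 had fewer, 22 of these under 10. The name orphan is historical: ligands are known for several members, and some Gpr symbols belong to membrane proteins that are not classical receptors. Matching to RefSeq found 57 members by symbol and 18 by an older name.

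G protein-coupled receptors are proteins of the cell surface that cross the membrane repeatedly and, when a ligand binds, switch on heterotrimeric G proteins inside the cell. Regulators of G protein signalling (RGS proteins), receptor kinases and arrestins then end the signal. In the brain, adhesion receptors of this group bind the extracellular matrix and neighbouring cells, Gpr17 is known as a brake on oligodendrocyte maturation, and receptors for lipids and metabolites are known mainly from immune cells. The hippocampal niche is the tissue around the dentate gyrus in which neural stem cells make new neurons in adult life.

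Per the labels, the old group is 1 library of hippocampal cells, after removal of neurons, from C57BL/6 wild-type mice older than 12 months. The Nestin-GFP group is 1 library of GFP+ hippocampal cells from NestinGFP mice, also C57BL/6 and labelled wild-type, in which GFP reports use of regulatory sequence of Nestin, an intermediate filament gene of neural progenitors. The niche group is 31 libraries in 5 experiments, made from hippocampi of wild-type C57BL/6 mice after removal of neurons, with no age given. The protocol names live single cells negative for antibodies to GluR1 and Cd24, sorted into plates and read by SORT-seq, a plate method that counts the 3' ends of transcripts with molecular identifiers. The number of mice per library is not given, and the libraries of experiment 2 are labelled as re-sequenced, so p-values measure the spread between these experiments.

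Wells with at least 1000 transcripts were kept, 138 of 384 in the old library, 315 of 384 in the Nestin-GFP library and 1285 of 3840 in the niche libraries, with median depths of 1943 (experiment 5) to 12390 (experiment 4) transcripts per niche cell. Cells were grouped on 166 fixed marker genes alone, so no member took part in forming the classes, and each class name stands for cells that are like that type in their markers. The niche held 297 microglia, 216 astrocytes, 45 neural stem cells, 42 proliferating progenitors, 195 neuroblasts and immature neurons, 258 oligodendrocyte precursors, 15 committed oligodendrocyte precursors, 67 mature oligodendrocytes, 39 lymphoid, 27 endothelial and 20 fibroblast cells. The fibroblast cells of experiment 4 also carried mural markers (8044 CPM, counts scaled to a 1e6 total, with all 9 detected), beside 21523 CPM of fibroblast markers. They held 12727 CPM of mature oligodendrocyte markers, with only 6 of 12 detected. No 2 wells held identical counts. In sums of whole classes, fewer expressing cells and less RNA per cell cannot be told apart.

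The 75 members together took 0.166% of all transcripts, and 1657 kept cells (95.3%) held at least 1 of them. A member had a median of 38.2 transcripts over all kept cells, against 178 for all genes. Counted transcripts were concentrated in 2 members, Gpr17 and Gpr56, with 47.8% of them. By role, 15 adhesion receptors held 32.7% of member transcripts, Gpr17 alone 24.8%, 9 intracellular membrane proteins that carry a Gpr symbol 18.4%, 11 receptors for lipids, metabolites or peptides 6.24%, the SREB pair (super-conserved receptors of the brain) 2.06%, 4 proton-sensing receptors 1.27%, 3 class C orphans 0.926% and the constitutively active Gpr3 family 0.174%. The cilium receptor Gpr161, an inhibitor of Hedgehog signalling, had 2 transcripts, and Gpr3 and Gpr12 had 17 and 12.

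Pooled CPM below are CPM made from the UMIs of all niche cells of a class together. All members together reached 6430 CPM in committed precursors, 2740 in precursors, 2470 in endothelial cells and 1800 in microglia. They reached 1790 CPM in stem cells, 1350 in astrocytes, 947 in neuroblasts and 931 in mature oligodendrocytes. These sums over members were made from transcripts corrected for saturation of the molecular identifiers, not from UMIs, and cannot be set beside pooled CPM. Without Gpr17 and Gpr56, the sums of single experiments were 888 to 1590 CPM in precursors and 1100 to 1410 CPM in microglia, which overlap. Gpr17 had a mean of 1350 CPM in precursors and 28.3 CPM in microglia, and Gpr56 had 340 and 634 CPM. The higher precursor level beside microglia thus rested on Gpr17.

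For 16 of these 40 members, the class with the highest pooled niche level had a 95% Poisson interval that stood apart from that of the second class. These were Gpr17 in committed precursors, Gpr4 and Gpr116 in endothelial cells, Gpr30 and Gpr182 in fibroblast cells, Gpr18, Gpr65, Gpr132 and Gpr171 in lymphoid cells, Gpr62 and Gpr64 in mature oligodendrocytes, Gpr84 and Gpr183 in microglia, Gpr98 in stem cells, and Gpr85 and Gpr158 in precursors. For the other 24 the first and second class overlapped, among them 5 with microglia first (Gpr35, Gpr137b, Gpr155, Gpr157, Gpr160), 4 with stem cells first (Gpr19, Gpr56, Gpr75, Gpr107) and 5 with fibroblast cells first (Gpr89, Gpr108, Gpr124, Gpr137, Gpr153). The remaining members of this kind were Gpr162 with astrocytes first, Gpr25, Gpr45 and Gpr180 with committed precursors, Gpr146 and Gpr174 with endothelial cells, Gpr123, Gpr137c and Gpr176 with precursors, and Gpr125 with proliferating progenitors. These intervals cover counting error only, narrow as counts rise, and are a description. The share of all genes with such intervals apart was not computed, so 16 of 40 says nothing about these members as a group. Classes left out of this ranking were higher for some members: the mixed erythroid class had 128 (84.1 to 186) pooled CPM of Gpr65, 118 (76.5 to 174) of Gpr132 and 61.4 (32.7 to 105) of Gpr35. Its 11 cells of experiment 4 held 197 CPM of Gpr65 and 173 CPM of Gpr132, beside 9838.8 CPM of microglia markers, 7932 CPM of monocyte and granulocyte markers and 0 CPM of erythroid markers. Gpr137b has a near-identical pseudogene copy, so its counts are uncertain.

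**Figure D1:**
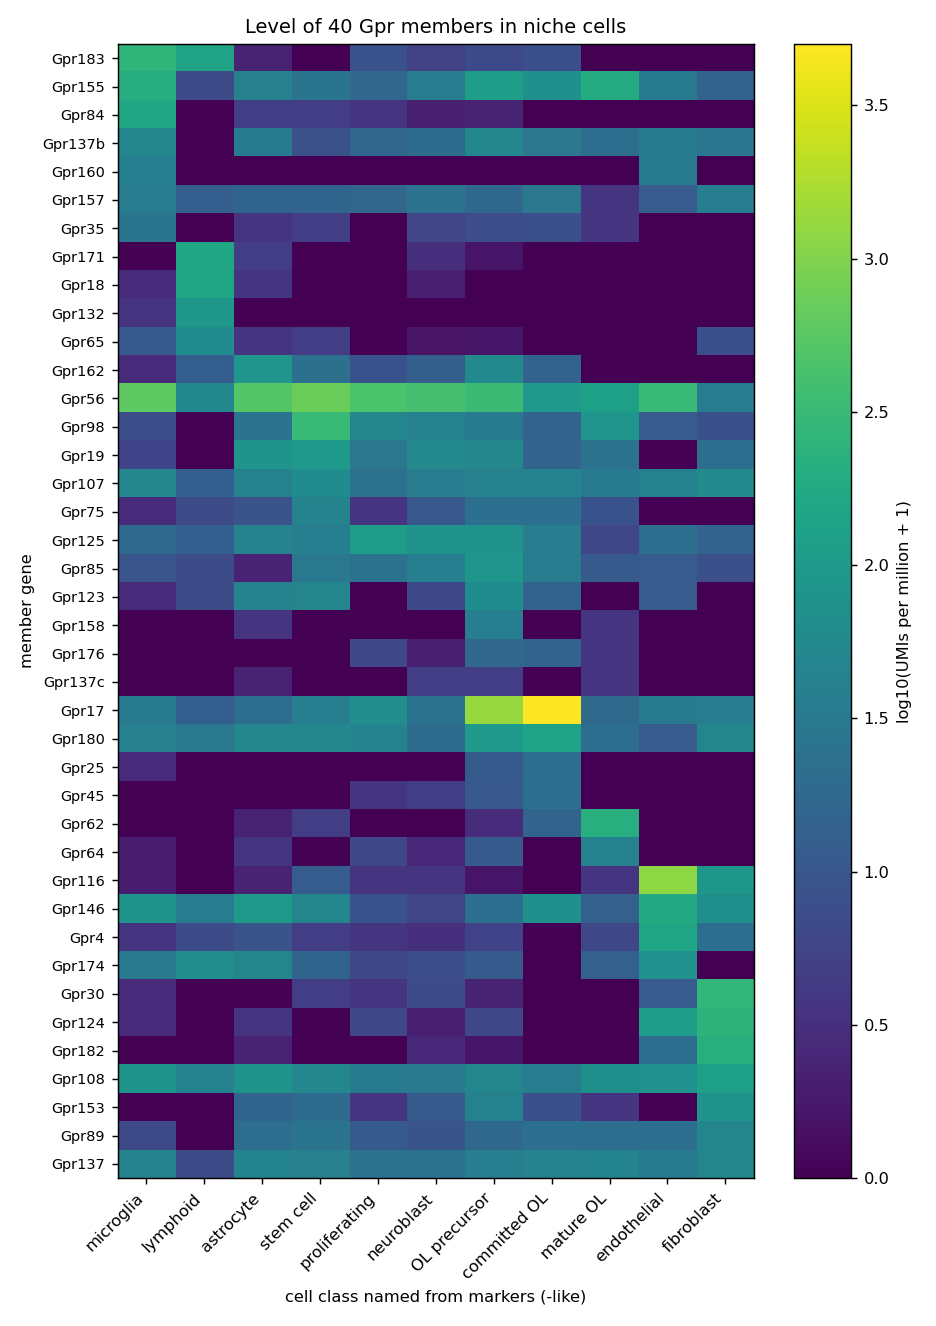
Level of 40 of the 43 members with at least 30 transcripts (rows) in 11 niche classes (columns; OL, oligodendrocyte), as log10 of pooled CPM (UMIs) plus 1 over all niche cells of a class. Gpr17 is bright in committed precursors (4950 pooled CPM) and in precursors (1360). Gpr116 is brightest in endothelial cells (1180), with fibroblast cells next (89.7), while Gpr56 is bright in most columns.

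The 4 classes with at least 10 cells in at least 3 experiments were compared with each other by edgeR's quasi-likelihood test on class sums, with the experiment as a block and Benjamini-Hochberg adjustment over all genes. Levels below are estimated transcripts of a class sum scaled to the same total (CPM) in 1 experiment, and a log2 fold change sets a class against the mean log level of the other 3. In this fit 15 members passed the filter on low counts.

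Microglia stood apart from astrocytes, neuroblasts and precursors above all in Gpr183, a receptor for oxysterols that steers the movement of immune cells, and Gpr84, a receptor for medium-chain fatty acids on myeloid cells. Gpr183 had 299, 258, 159 and 191 CPM in microglia of experiments 1, 2, 3 and 5, against 0 to 11.7 CPM in the 12 sums of the other classes. All 4 microglia sums lay above all 12 others. The difference was 6.74 ± 0.41 on the log2 scale (SE, edgeR adjusted p = 2.93e-21). Gpr84 had 133, 105, 332 and 104 CPM in the same microglia sums, against 0 to 8.53 CPM elsewhere. Experiment 3 was the highest, and the groups again did not overlap (log2 difference 6.20 ± 0.45, edgeR adjusted p = 1.03e-17). The 13 microglia markers were all detected in each microglia sum, at 35704 to 50013 CPM together.

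The start regions of these 2 genes are shown because they carry the largest microglial differences, and their sequences are from RefSeq on GRCm38.p6, 250 bases before to 50 after the start, 5' to 3'. Capitals mark the motif CAGCTG (an E-box, the same on both strands).
Gpr183, chr14:121965144-121965443, minus strand: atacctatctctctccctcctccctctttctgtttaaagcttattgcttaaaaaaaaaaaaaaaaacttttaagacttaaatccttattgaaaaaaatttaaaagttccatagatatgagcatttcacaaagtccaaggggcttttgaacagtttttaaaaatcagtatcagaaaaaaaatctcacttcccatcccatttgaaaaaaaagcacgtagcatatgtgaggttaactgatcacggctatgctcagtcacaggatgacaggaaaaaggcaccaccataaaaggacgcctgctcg
Gpr84, chr15:103310389-103310688, minus strand: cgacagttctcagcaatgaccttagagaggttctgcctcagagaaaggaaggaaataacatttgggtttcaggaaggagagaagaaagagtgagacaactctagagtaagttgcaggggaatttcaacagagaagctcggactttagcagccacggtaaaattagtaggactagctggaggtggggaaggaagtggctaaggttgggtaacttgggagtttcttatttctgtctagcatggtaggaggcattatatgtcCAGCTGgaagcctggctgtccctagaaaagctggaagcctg
CAGCTG occurred 0 times in the first and 1 time in the second, and GAGGAA (a core of PU.1 sites, reverse complement TTCCTC, searched on both strands) occurred in neither. Of all 32851 promoters of this length 16.3% held CAGCTG and 28.3% held GAGGAA, and of the 72 promoters of 56 members 30.6% held CAGCTG and 30.6% held GAGGAA. These are letter matches, not sites of binding. Gpr183 lies on chromosome 14 next to Gpr18, with a gap of 36.4 kb, and the highest class of Gpr18 was lymphoid.

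Among the 15 tested members, 6 were higher and 5 lower in microglia, against 25.9% higher and 27.6% lower of the 6516 tested genes that were not markers (53.5% in either direction). The members' median log2 difference was 0.65, against -0.11 over all genes. That median is the value of 1 member, Gpr174 (0.65 ± 0.67), which was not called. Gpr174 had 261 CPM in microglia of experiment 5 and 0 to 21.6 CPM in those of the other experiments, so the median is no measure of a shift of the members. Gpr155, a lysosomal cholesterol-sensing protein, was higher at 214, 210, 166 and 209 CPM in microglia of experiments 1, 2, 3 and 5, against 7.56 to 185 CPM in the other sums (2.23 ± 0.26 on the log2 scale, edgeR adjusted p = 1.81e-10), where the overlap was with precursors. Gpr146, known for its effect on plasma cholesterol through the liver, was also higher (2.05 ± 0.36), as were the Golgi protein Gpr108 (0.93 ± 0.30) and the adhesion receptor Gpr56 (0.93 ± 0.19).

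Lower in microglia were the orphans Gpr19 and Gpr162 and the adhesion receptor Gpr123. Gpr19 had 4.35, 0, 0 and 17.4 CPM in microglia of experiments 1, 2, 3 and 5, against 12.8 to 93.8 CPM in the other sums (-3.72 ± 0.60 on the log2 scale, edgeR adjusted p = 4.60e-07). Gpr162 had 2 transcripts over the microglia sums and 174 over the others, a ratio of CPM 0.0462 (95% counting interval 0.00556 to 0.17, edgeR adjusted p = 1.29e-04). Gpr123 likewise had 2 against 141, a ratio of 0.0571 (0.00684 to 0.21, edgeR adjusted p = 2.49e-04). Gpr17 (-1.03 ± 0.39) and Gpr125 (-1.66 ± 0.43) were lower too, and microglia held 14.4 to 50.8 CPM of Gpr17 beside 139 to 456 CPM of oligodendrocyte precursor markers. The mean of Gpr17 was 28.3 CPM in microglia, 21.5 in astrocytes, 25.9 in neuroblasts and 1350 in precursors, so only precursors had a higher mean.

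**Figure D2:**
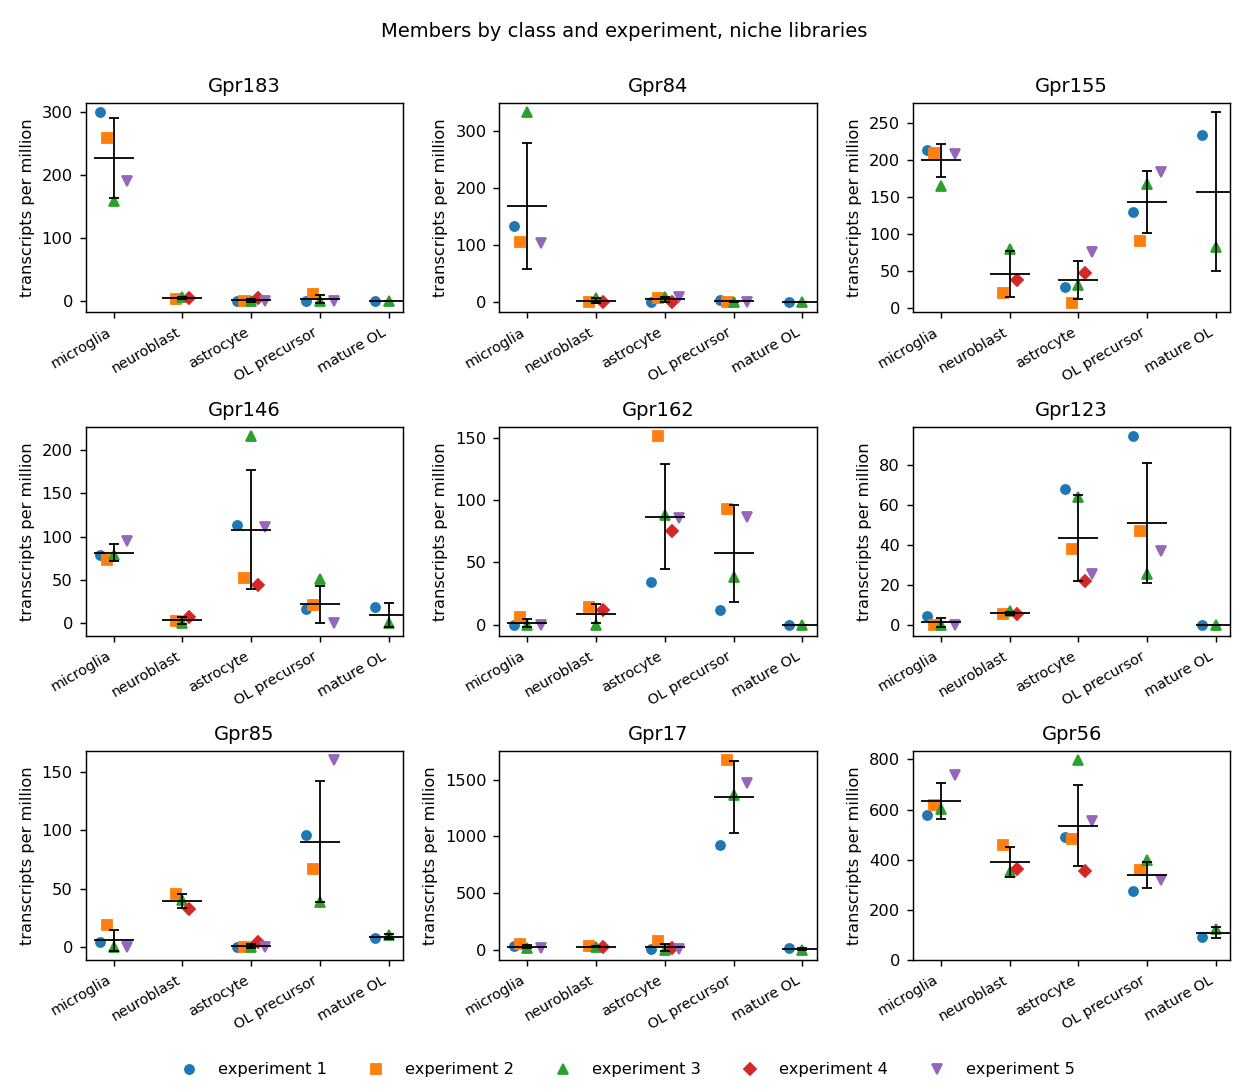
Level of 9 members in CPM (vertical axes) in 5 niche classes (OL, oligodendrocyte), 1 point per experiment with at least 10 cells, with the mean (bar) and SD (whiskers). Gpr183 and Gpr84 points lie above 100 in microglia and at or below 11.7 in the other classes, and Gpr17 points lie at 921 to 1670 in precursors and at or below 75.6 elsewhere.

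Higher in astrocytes were Gpr162, an orphan receptor, Gpr123 and Gpr146, and Gpr183 and Gpr85 were nearly at 0. Gpr162 had 34.2, 151, 87.9, 75.3 and 85.3 CPM in astrocytes of experiments 1 to 5, against 0 to 92.7 CPM in the other sums (3.13 ± 0.42 on the log2 scale, edgeR adjusted p = 7.28e-09). The overlap was with precursors. Gpr123 had 68.4, 37.8, 64, 22 and 25.6 CPM in astrocytes of experiments 1 to 5, against 0 to 94.6 CPM elsewhere (2.40 ± 0.49, edgeR adjusted p = 5.62e-05). Its mean was 43.6 CPM in astrocytes and 51.1 CPM in precursors, where it was called higher as well. Gpr146 had 114, 52.9, 216, 44.1 and 111 CPM in the same astrocytes, against 0 to 95.6 CPM (2.28 ± 0.35, edgeR adjusted p = 1.84e-07), with microglia closest.

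In astrocytes 5 of the 15 tested members were higher and 4 lower, against 22.5% and 21% of all tested genes (43.4% in either direction), with medians of 0.37 for the members and -0.15 for all genes on the log2 scale. Gpr19 (1.89 ± 0.37) and Gpr108 (0.79 ± 0.29) were the other members that were higher. Gpr183 and Gpr85, a super-conserved brain receptor, each had 1 transcript in all astrocyte sums, both in experiment 4, against 280 and 204 in the other sums. Of the 280 transcripts of Gpr183, 263 were in microglia, 9 in precursors and 8 in neuroblasts. Neuroblasts set against astrocytes gave no call for Gpr183 (edgeR adjusted p = 0.508), so low Gpr183 was not particular to astrocytes. The ratios were 0.0202 (0.000508 to 0.113, edgeR adjusted p = 0.00418) for Gpr183 and 0.0277 (0.000697 to 0.156, edgeR adjusted p = 2.38e-04) for Gpr85. Gpr155 (-1.38 ± 0.33) and Gpr17 (-2.14 ± 0.40) were lower as well. For Gpr17 the mean was 21.5 CPM in astrocytes, 25.9 in neuroblasts and 28.3 in microglia, against 1350 in precursors. Without experiment 2 the Gpr183 difference lost its call (edgeR adjusted p = 0.973).

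Oligodendrocyte precursors were set apart by Gpr17. It had 921, 1670, 1360 and 1470 CPM in precursors of experiments 1, 2, 3 and 5, against 0 to 75.6 CPM in the 12 sums of microglia, astrocytes and neuroblasts, so the lowest precursor sum lay far above the highest other (5.44 ± 0.25 on the log2 scale, edgeR adjusted p = 1.39e-24). Gpr85 had 96.2, 66.6, 38.5 and 160 CPM in precursors, against 0 to 45.5 CPM elsewhere (2.95 ± 0.51, edgeR adjusted p = 2.94e-06), and its highest other values were in neuroblasts. Gpr123 had 94.6, 47, 25.7 and 37 CPM in precursors, against 0 to 68.4 CPM (2.27 ± 0.47, edgeR adjusted p = 8.55e-05). Gpr162 had 11.6, 92.7, 38.5 and 86.3 CPM, against 0 to 151 CPM (1.77 ± 0.46, edgeR adjusted p = 0.00159).

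In precursors 6 of the 15 members were higher and 1 lower, against 18.9% and 13.6% of all tested genes (32.5% in either direction). DESeq2 called 4 higher and 2 lower. With wells of at least 2000 transcripts 3 members were called, and 2 with clusters from variable genes; Gpr85 and Gpr123 did not pass the filter of those 2 fits. The members' median was 0.39, against 0 over all genes, on the log2 scale. Gpr125 (0.85 ± 0.32) and Gpr180 (0.84 ± 0.32), a membrane protein that is not a classical receptor, were the smaller rises. Gpr56 was the member that was lower, with 278, 359, 401 and 321 CPM in precursors, against 351 to 799 CPM elsewhere (-0.98 ± 0.21, edgeR adjusted p = 1.42e-04). Precursor markers were all 10 detected in each precursor sum, at 11394 to 13295 CPM together, beside 551 to 1061 CPM of mature oligodendrocyte markers. Gpr158, a class C receptor for glycine, did not pass the filter of this fit and had 39.8, 36.5, 38.7 and 37 CPM in precursors, against 0 to 7.56 CPM in microglia, neuroblasts and astrocytes.

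**Figure D3:**
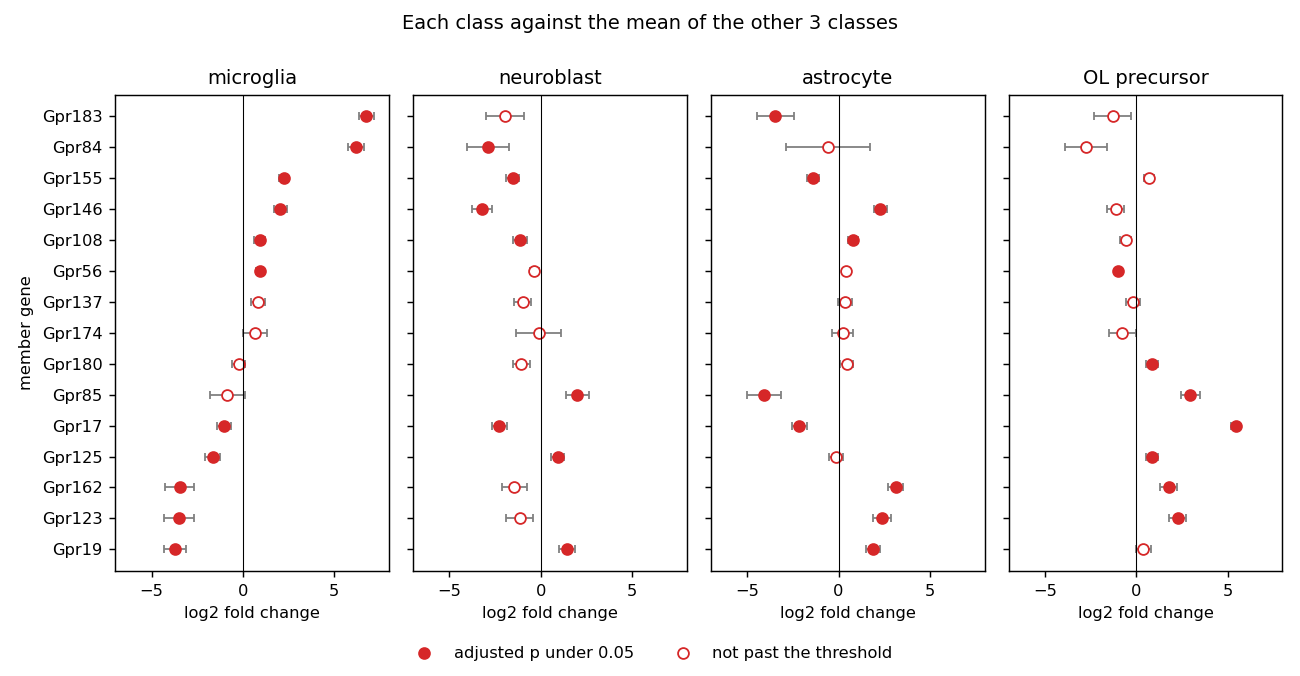
Log2 fold change (horizontal axes) of the 15 tested members in 4 niche classes, each against the mean of the other 3 (points; bars, SE; filled where the adjusted p is under 0.05; OL, oligodendrocyte). Gpr183 and Gpr84 lie above 6 in microglia and Gpr17 above 5 in precursors, and all other points lie between -4.09 and 3.13.

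Along the oligodendrocyte lineage, Gpr17 was highest in the committed precursors, the cells between precursor and myelinating cell. The 15 committed cells held 701 UMIs of Gpr17, a level of 4950 pooled CPM (95% Poisson interval 4590 to 5330), against 1360 pooled CPM (1300 to 1420) in precursors and 17.8 (7.17 to 36.8) in mature oligodendrocytes. By experiment, committed cells had 3640, 7210, 5540, 6550 and 0 CPM in experiments 1 to 5, from 7, 4, 1, 2 and 1 cells, and 14 of the 15 had a transcript. No experiment held 10 committed cells, so this step was not tested. Gpr180 followed with 141 (86.2 to 218) pooled CPM in committed cells, 95.5 (80.8 to 112) in precursors and 20.4 (8.81 to 40.2) in mature cells. Gpr25 and Gpr45 were at 3 UMIs each in committed cells, too few to order.

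Precursors and mature oligodendrocytes were compared in a second fit that added mature cells of experiments 1 and 3. Gpr17 had 921 to 1670 CPM in precursors, against 11.6 and 0 CPM in mature cells (ratio 160, 95% counting interval 54.6 to 775, edgeR adjusted p = 4.16e-16). Gpr125 had 64.3 to 82.9 CPM in precursors, against 7.77 and 0 CPM (ratio 13.9, 3.77 to 116, edgeR adjusted p = 6.56e-04). Gpr123 and Gpr162 had 98 and 88 transcripts in precursors and 0 in mature cells, at least 7.58-fold (edgeR adjusted p = 2.37e-04) and at least 6.81-fold (edgeR adjusted p = 0.0273) higher against a floor of 3 counts over the mature sums.

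Gpr62, an orphan receptor, ran the other way. It had 3.31, 1.30, 0 and 0 CPM in precursors of experiments 1, 2, 3 and 5, against 214 and 103 CPM in mature cells of experiments 1 and 3. The precursor to mature ratio was 0.0107 (0.00215 to 0.0327, edgeR adjusted p = 1.93e-07), though not past the threshold with DESeq2 (adjusted p = 0.486). In all niche cells Gpr62 had 217 (173 to 268) pooled CPM in mature oligodendrocytes and 14.1 (1.71 to 51) in committed cells, and 38 of 67 mature cells had a transcript, 56.7% (exact 95% interval 44 to 68.8). In 0 of 297 microglia was a Gpr62 transcript found, which allows a share of cells with a UMI of up to 1.01% and sets no limit on cells that express it. Nestin-GFP mature oligodendrocytes also held it, at 211 CPM.

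In that fit 7 of 20 tested members were higher in precursors and 2 lower, against 16.1% and 12.4% of all tested genes (28.5% in either direction), with medians of 1.57 for members and 0.21 for all genes on the log2 scale. The members' median was 1.17 with members at 0 in mature cells set to their bound. Gpr85 (ratio 9.67, 3.23 to 47.5), Gpr180 (1.63 ± 0.65 on the log2 scale) and Gpr56 (1.17 ± 0.38) were among the higher and Gpr98 (-1.85 ± 0.62) among the lower. Without experiment 1, which gave 50 of the mature cells, 2 members were called. DESeq2 called 5 higher and 0 lower, so the Gpr98 and Gpr62 calls were not made by it. Without experiment 1, 2 or 3 the Gpr162 call was lost (edgeR adjusted p = 0.154, 0.0502 and 0.195).

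Start regions of Gpr85 and Gpr62 are given as a member higher in precursors (and in neuroblasts) and a member higher in mature cells, from RefSeq on GRCm38.p6 as above, with CAGCTG in capitals.
Gpr85, chr6:13839893-13840192, minus strand: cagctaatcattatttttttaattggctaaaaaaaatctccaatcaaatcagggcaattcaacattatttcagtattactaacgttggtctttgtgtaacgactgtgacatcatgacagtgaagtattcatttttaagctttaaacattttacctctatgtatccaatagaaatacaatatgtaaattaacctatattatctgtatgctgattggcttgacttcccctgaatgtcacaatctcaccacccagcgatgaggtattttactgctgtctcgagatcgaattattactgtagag
Gpr62, chr9:106465936-106466235, minus strand: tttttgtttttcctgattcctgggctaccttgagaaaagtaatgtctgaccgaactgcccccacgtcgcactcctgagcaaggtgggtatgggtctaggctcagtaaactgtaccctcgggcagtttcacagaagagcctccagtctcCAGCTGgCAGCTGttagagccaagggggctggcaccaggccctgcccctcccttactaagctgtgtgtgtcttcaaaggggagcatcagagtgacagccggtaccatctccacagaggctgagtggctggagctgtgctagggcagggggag
CAGCTG occurred 0 times in the first and 2 times in the second, and GAGGAA in neither.

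**Figure D4:**
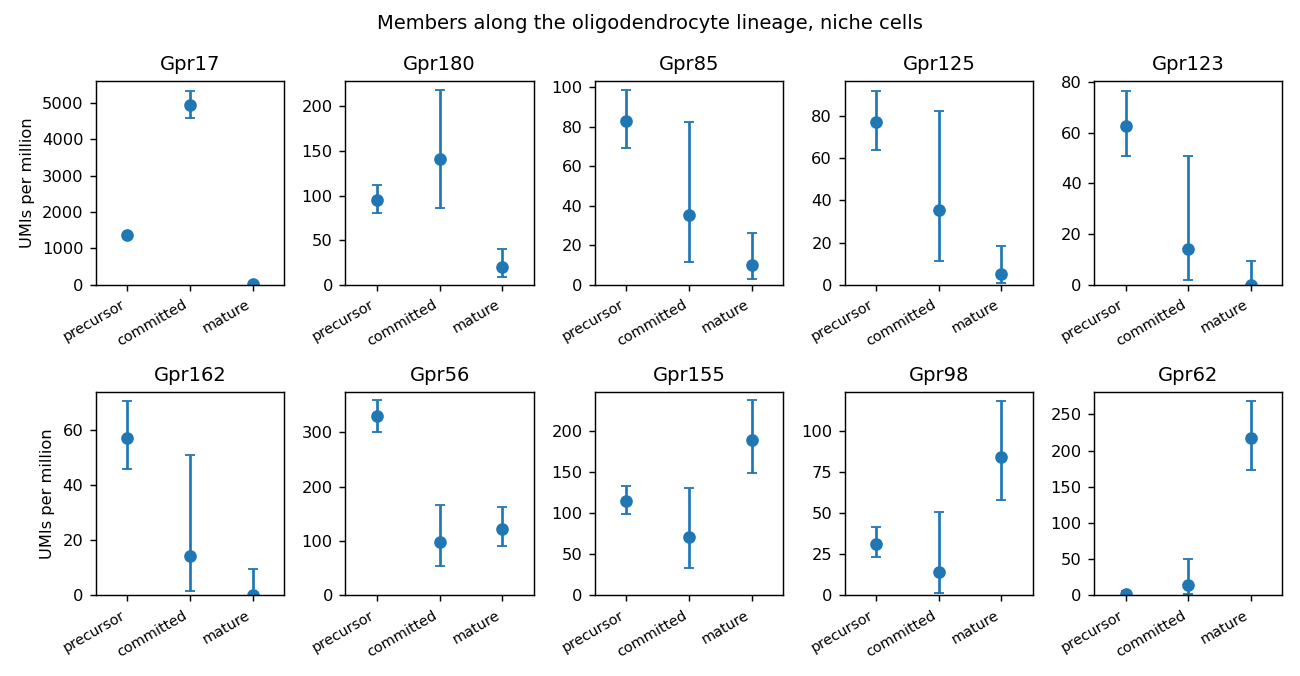
Pooled CPM (UMIs) (vertical axes, each with its own range) of 10 members in precursors, committed precursors and mature oligodendrocytes of the niche, pooled over cells, with 95% Poisson intervals. Gpr17 peaks at 4950 in committed cells, and Gpr62 is at 217 in mature cells and at 1.92 in precursors.

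Neuroblasts and immature neurons held few members at levels above the other classes. Gpr85 had 45.5, 40.1 and 33 CPM in neuroblasts of experiments 2, 3 and 4, against 0 to 160 CPM in the other sums (2.01 ± 0.62 on the log2 scale, edgeR adjusted p = 0.00691), a call lost with DESeq2 (adjusted p = 0.0866). Its range overlapped that of precursors (38.5 to 160 CPM) and lay above that of astrocytes. Gpr146 had 2.6, 0 and 7.69 CPM in neuroblasts, against 0 to 216 CPM (-3.20 ± 0.55, edgeR adjusted p = 4.00e-06). Gpr17 had 31.2, 26.7 and 19.8 CPM in neuroblasts of experiments 2, 3 and 4, against 0 to 1670 CPM (-2.27 ± 0.42, edgeR adjusted p = 1.42e-05). The high values were those of precursors, with a mean of 1350 CPM, against 28.3 in microglia and 21.5 in astrocytes. Set against astrocytes alone, Gpr17 was not called in neuroblasts (-0.10 ± 0.54, edgeR adjusted p = 0.897).

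In neuroblasts 3 of the 15 members were higher and 5 lower, against 20.8% and 20.1% of all tested genes (40.9% in either direction). DESeq2 called 1 higher and 7 lower. The median was -1.14 for the members and 0 for all genes on the log2 scale. Gpr155 had 20.8, 80.5 and 38.5 CPM in neuroblasts of experiments 2, 3 and 4, against 7.56 to 214 CPM (-1.54 ± 0.36, edgeR adjusted p = 5.06e-04). Gpr84 had 1 transcript in the neuroblast sums and 157 in the others (ratio 0.0116, 0.000292 to 0.0656, edgeR adjusted p = 0.0397). Of these 157, 152 were in microglia, 3 in astrocytes and 2 in precursors, so low Gpr84 was not particular to neuroblasts. Gpr19 (1.44 ± 0.44) and Gpr125 (0.94 ± 0.36) were higher and Gpr108 (-1.14 ± 0.38) lower. These calls leaned on single experiments: 5 members were called without experiment 1 and 2, Gpr146 and Gpr17, without experiment 2. Gpr85 was not among them in either case.

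Set directly against astrocytes, neuroblasts had more Gpr85 and less of 4 other members. For all 5 the groups did not overlap, but those of Gpr19 and Gpr125, which were not called, did not overlap either. The share of all tested genes without overlap was not computed. Gpr85 had 33 to 45.5 CPM in neuroblasts, against 0 CPM in 4 astrocyte sums and 4.4 CPM in the other (ratio 30.2, 95% counting interval 5.24 to 1210, edgeR adjusted p = 8.19e-05). Gpr146 had 0 to 7.69 CPM in neuroblasts, against 44.1 to 216 CPM in astrocytes (-4.11 ± 0.56 on the log2 scale, edgeR adjusted p = 1.46e-08). Gpr162 had 0 to 14.3 CPM in neuroblasts, against 34.2 to 151 CPM (-3.43 ± 0.52, edgeR adjusted p = 1.69e-07). Gpr123 had 5.2 to 6.68 CPM in neuroblasts, against 22 to 68.4 CPM (-2.66 ± 0.65, edgeR adjusted p = 5.55e-04). Gpr108 had 6.68 to 29.9 CPM in neuroblasts, against 48.6 to 114 CPM (-1.45 ± 0.41, edgeR adjusted p = 0.00308). These were 1 higher and 4 lower of 15, against 21.8% and 22.4% of all tested genes (44.2% in either direction), with medians of -0.56 and 0.09. Without experiment 1 only Gpr146 and Gpr162 were called, and without experiment 5 there were 8 calls.

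Stem cells were compared with astrocytes after the data had been seen, on sums of at least 5 cells (5, 27, 7 and 6 stem cells in experiments 1, 2, 3 and 5). Gpr98, a very large adhesion receptor known from hearing and vision, had 127, 352, 316 and 169 CPM in stem cells of experiments 1, 2, 3 and 5, from 2, 64, 17 and 4 UMIs. Astrocytes had 5.7, 60.4, 31.9, 8.8 and 34.1 CPM of Gpr98 in experiments 1 to 5. Every stem cell sum lay above every astrocyte sum (3.07 ± 0.52 on the log2 scale, edgeR adjusted p = 1.70e-05), and this difference was known from earlier results of these data when the comparison was chosen. Gpr162 had 0 to 63.4 CPM in stem cells, against 34.2 to 151 CPM in astrocytes (-2.55 ± 0.71, edgeR adjusted p = 0.0151), a call lost without experiment 2 (edgeR adjusted p = 0.511), without experiment 3 (edgeR adjusted p = 0.0531) and with no replicate block (edgeR adjusted p = 0.233). These 2 of 13 tested members, 1 in each direction, stand against 1.53% higher and 4.44% lower of all tested genes (5.97% in either direction), with medians of -0.42 (-0.33 without Gpr183, at 0 in stem cells) and -0.09. Stem cells also held 731 (633 to 840) pooled CPM of Gpr56, against 517 (467 to 571) in astrocytes. Gpr56 was not called.

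Gpr56, which binds collagen and helps to set the border of the developing cortex, was found in every class of the map. Its mean was 634 ± 71.5 CPM in microglia (SD, n = 4), 537 ± 163 in astrocytes (n = 5), 391 ± 58.9 in neuroblasts (n = 3), 340 ± 52.5 in precursors (n = 4), 109 ± 21.9 in mature oligodendrocytes (n = 2) and 57.3 ± 39.3 in lymphoid cells (n = 2). In that order, neighbours overlapped in their range of experiments from microglia down to precursors, and mature oligodendrocytes lay below all precursor sums. On chromosome 8 its gene (94974756 to 95014208) has the adhesion receptor gene Gpr97 as a neighbour, at a gap of 2.9 kb. Gpr97 had 7 transcripts in all.

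Lymphoid, endothelial and fibroblast cells came mostly from 1 or 2 experiments, so they have levels and no test. Among the ranked classes, the proton-sensing receptors Gpr132 and Gpr65 were highest in lymphoid cells, below the mixed class described above: Gpr132 had 88.7 (95% Poisson interval 49.7 to 146) and Gpr65 59.1 (28.4 to 109) pooled CPM. Gpr4, of the same family, was highest in endothelial cells, at 156 (87.4 to 257). Lymphoid cells also held Gpr171, a peptide receptor, at 154 (100 to 225), and Gpr18, a lipid receptor of lymphocytes, at 148 (95.7 to 218) pooled CPM. Gpr183 reached 142 (90.9 to 211) in lymphoid cells, beside 266 (236 to 299) in microglia. Microglia held 0 UMIs of Gpr171 and 2 of Gpr18. In lymphoid sums of experiments 1 and 2, microglia markers were at 710 and 2486 CPM.

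Endothelial cells all held Gpr116, an adhesion receptor known from vessels and lung, with a transcript in 27 of 27 cells (exact 95% interval 87.2 to 100%) and 1180 (969 to 1410) pooled CPM. The same gene was at 89.7 (47.8 to 153) in fibroblast cells and at 0.928 (0.0235 to 5.17) in microglia, and it reached 1740 CPM in Nestin-GFP endothelial cells. Fibroblast cells held Gpr30, an oestrogen receptor of the membrane, at 283 (203 to 384) pooled CPM, against 10.4 (0.263 to 58) in endothelial cells. Gpr182, an atypical chemokine receptor, had 207 (140 to 296) pooled CPM in fibroblast cells, against 20.8 (2.52 to 75.2) in endothelial cells. Gpr124, which vessels of the brain need for Wnt signalling, had 249 (174 to 344) in fibroblast cells and 114 (57.1 to 205) in endothelial cells, which overlap. Of the 20 fibroblast cells 13 came from experiment 4.

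Several members had low levels, were spread over classes, or both. Gpr64, an adhesion receptor, had 40.8 (95% Poisson interval 23.3 to 66.2) pooled CPM in mature oligodendrocytes and 10.3 (5.86 to 16.7) in precursors. Gpr160 had 39 (28.1 to 52.7) in microglia, from 42 UMIs, and 31.2 (6.44 to 91.2) in endothelial cells, from 3. Gpr35, a receptor for kynurenic acid, had 25.1 (16.5 to 36.5) in microglia and 7.05 (0.179 to 39.3) in committed precursors. The Golgi proteins Gpr107 and Gpr108 and the related membrane proteins Gpr137 and Gpr137b were spread over many classes. Gpr107 had 62.4 (36.4 to 100) in stem cells and 55.2 (23.8 to 109) in fibroblast cells, and Gpr137b had 48.3 (36 to 63.3) in microglia and 48.1 (37.8 to 60.3) in precursors. Gpr125, a relative of Gpr123 and Gpr124, had 110 (79.8 to 149) pooled CPM in proliferating progenitors and 77.7 (65.5 to 91.5) in neuroblasts.

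A Gpr17 transcript was found in 92.2% of 258 precursors (exact 95% interval 88.3 to 95.2) and in 8.75% of 297 microglia (5.80 to 12.6), with median depths of 5430 and 2940 transcripts. With every cell thinned to 1000 transcripts, Gpr17 was in 64.3% of precursors and 4.04% of microglia. Gpr183 was in 44.8% (39 to 50.6) of microglia, 23.6% when thinned, against 0.463% (0.0117 to 2.55) of 216 astrocytes. Gpr84 was in 30.6% (25.4 to 36.2) of microglia, 13.8% when thinned, and in 1.39% of astrocytes. Gpr98 was in 27 of 45 stem cells (44.3 to 74.3%), 15.6% when thinned, against 6.02% (3.24 to 10.1) of astrocytes, 3.76% when thinned. For Gpr85 the share was 22.1% (16.4 to 28.5) of neuroblasts, against 0.463% of astrocytes, but after thinning 3.08% and 0%, which is near the level of 1 UMI.

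The number of members found in at least 5% of cells was 23 in precursors, 18 in neuroblasts, 17 in astrocytes, 16 in microglia and 14 in mature oligodendrocytes. After thinning it was 10 in precursors, 8 in astrocytes, 8 in microglia, 4 in mature oligodendrocytes and 2 in neuroblasts. A precursor held 6.12 members on average (1.94 when thinned), a neuroblast 4.32 (0.733), a microglial cell 3.64 (1.62) and an astrocyte 2.83 (1.23). Neuroblasts, the deepest of these classes at a median of 8170 transcripts, thus moved from the second place to the last.

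Signalling partners were counted from fixed lists in the same fits. Microglia had 5 higher and 3 lower of 8 tested RGS genes (median 3.36), among them Rgs10 (7.37 ± 0.29 on the log2 scale), Rgs1 (6.88 ± 0.30) and Rgs2 (6.07 ± 0.23), which shorten G protein signals. Of 8 G protein alpha genes 3 were higher and 2 lower in microglia (median 0.32), with Gna15 at 8.39 ± 0.44 and Gnao1 at -3.35 ± 0.28. Of 10 beta and gamma genes 5 were higher and 3 lower (median 0), Gngt2 at 6.00 ± 0.51, and of 5 kinase and arrestin genes 2 were higher and 1 lower (median 0.13), Arrb2 at 3.58 ± 0.25. Of 3 adenylyl cyclase genes 1 was higher, Adcy7 at 5.57 ± 0.46, and 2 lower (median -1.54).

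In astrocytes 2 of 8 alpha genes were higher and 1 lower (median 0.12), with Gnao1 at 3.38 ± 0.18, and 3 of 8 RGS genes were higher and 4 lower (median -1.03), with Rgs20 at 3.72 ± 0.30. Of 3 cyclase genes 1 was higher, Adcy2 at 3.97 ± 0.38, 2 of 10 beta and gamma genes were higher and 4 lower, and 3 of 5 kinase and arrestin genes were higher and 1 lower. Precursors had 4 of 10 beta and gamma genes higher and 1 lower (median -0.20), with Gng3 at 4.15 ± 0.30 and Gnb4 at 2.14 ± 0.37, 0 of 8 alpha genes higher and 3 lower, and 1 of 8 RGS genes higher and 3 lower. Neuroblasts had 2 of 10 beta and gamma genes higher and 2 lower (median -0.02), with Gng2 at 1.76 ± 0.28, and 1 of 8 RGS genes higher and 4 lower, with Rgs10 at -2.56 ± 0.62. These lists were chosen with earlier results of these data known, and their shares stand beside the backgrounds given above.

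Old microglia (61 cells, 1 library) were compared with niche microglia of 4 experiments, and the old library was assumed to vary as the niche sums do. Of 14 tested members 0 was called by edgeR, 0 had an unadjusted p under 0.05 and DESeq2 called 0. The background was 0.0% of all tested genes, with medians of -0.49 for the members and -0.05 for all genes. Gpr183 had 204 CPM in old microglia, against 159 to 299 CPM in niche microglia, and Gpr84 had 127 against 104 to 332. Gpr56 had 669 CPM in old microglia, against 578 to 739 CPM. Lying outside the niche range were Gpr155 at 146 CPM in old microglia, against 166 to 214 (-0.42 ± 0.45, edgeR adjusted p = 0.998), Gpr108 at 50 against 60.3 to 139, Gpr107 at 26.9 against 32.7 to 79.4, and Gpr160 at 11.5 against 17.4 to 47.6 CPM. The share of all tested genes outside the niche range was not computed. With 1 old library, age cannot be told apart from the library.

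Nestin-GFP astrocytes (90 cells, 1 library) showed 0 of 13 tested members called by edgeR, 0 with an unadjusted p under 0.05, and 0 called by DESeq2 (1 with an unadjusted p under 0.05), against a background of 0.0569% higher and 0.0% lower. Medians were 0.29 for the members and -0.06 for all genes. Gpr162 had 152 CPM in Nestin-GFP astrocytes, against 34.2 to 151 CPM in niche astrocytes (0.97 ± 0.56 on the log2 scale, edgeR adjusted p = 1.0). Nestin-GFP precursors (66 cells) showed 0 of 23 members called by edgeR, 0 with an unadjusted p under 0.05 and 0 by DESeq2, against a background of 0.0199% higher and 0.00995% lower (0.0298% in either direction) and with medians of -0.25 and -0.02. Gpr17 had 1360 CPM in Nestin-GFP precursors, against 921 to 1670 CPM in niche precursors. Outside the niche range were 6 of the 23 members, and the share of all tested genes outside it was not computed. Gpr25 had 23.6 CPM in Nestin-GFP precursors, against 0 to 11.7 (1.48 ± 1.13), and Gpr162 had 107 against 11.6 to 92.7 (0.99 ± 0.75). Lower were Gpr137b at 19.3 against 36.5 to 86.3 (-1.43 ± 0.70), Gpr180 at 55.9 against 69.2 to 160 (-0.83 ± 0.54), Gpr108 at 30.1 against 38.5 to 61.4 (-0.66 ± 0.62) and Gpr158 at 32.2 against 36.5 to 39.8 CPM (-0.19 ± 0.62). A miss of the threshold does not show that these levels are alike.

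Gpr174, a lysophosphatidylserine receptor of lymphocytes, stood apart in experiment 5, across classes. Both libraries of experiment 5 had 216 and 289 CPM over all classes, from 54 and 58 UMIs in 39 and 33 cells, against 0 to 18 CPM in the other 22 niche libraries with at least 10 cells, 9.55 CPM in the old library and 0 in the Nestin-GFP library. It was found in 8 and 7 classes of those libraries. In experiment 5 it had 261 CPM in microglia, 299 in astrocytes and 185 in precursors, against 0 to 21.6 CPM in these classes of other experiments. Summed over classes, experiment 5 held 91.4% of the Gpr174 level, 24.9 times the next experiment. Outside experiment 5 it was found at low counts in lymphoid and other cells. The lymphoid sums of experiments 1 and 2 had 88.6 and 36.5 CPM of Gpr174, where microglia, astrocytes and precursors of the same experiments were at 0 CPM. Libraries of experiments 1 and 2 held at most 3 UMIs of Gpr174 each. Neuroblast sums held 12 transcripts, at 0 to 13.2 CPM, and astrocytes of experiment 3 had 7.98 CPM. The first place of endothelial cells for Gpr174 in the ranking above rested on 7 UMIs. Of the 27 niche endothelial cells, 7 came from experiment 5. What sets experiment 5 apart for this gene was not tested.

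**Figure D5:**
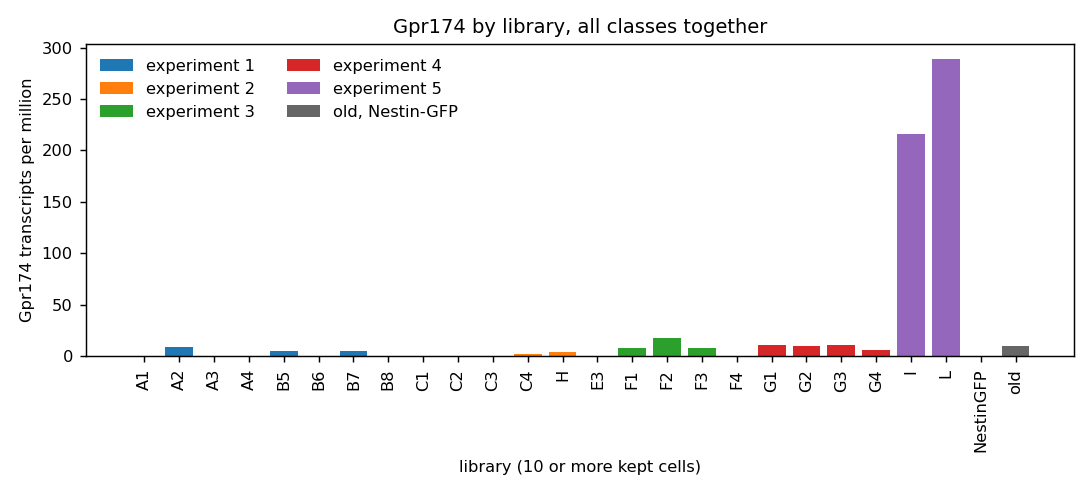
Gpr174 in CPM (vertical axis, from 0) in each library with at least 10 kept cells, all classes together, coloured by experiment. The bars of libraries I and L, both of experiment 5, reach 216 and 289, and all other bars are at or below 18.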

How the data were processed

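The authors deposited 1 table per library of estimated counts, that is, numbers of transcripts for each gene and well after correction for the saturation of molecular identifiers (UMIs). Per the submitters' processing notes, reads were mapped with BWA 0.6.2-r126 to mm10; neither counting tool nor annotation is stated there. Inverting the correction gave whole UMIs for at least 99.6% of the low values in each library (within 0.05), and intervals use those UMIs.

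Wells with at least 1000 transcripts were kept: 138 old, 315 Nestin-GFP and 1285 niche cells. Cells were clustered with scanpy 1.11.5 (Leiden) on 166 marker genes, none a member, and named from these markers; resolution and naming thresholds were set after seeing the data, and no doublet caller was run; the 41 cells with at least 3 markers of an unrelated class stayed in and were left out as an alternative. Estimated counts were summed per class and experiment (at least 10 cells), rounded, and tested with edgeR 4.0.16 (TMM, filterByExpr, quasi-likelihood, experiment as block, Benjamini-Hochberg over all genes tested); background shares leave out marker genes. The block follows the labels, and sums of the same experiment deviated together (median correlation 0.454 over 19 pairs, lowest 0.155). The replicate is the experiment; where 1 library stands on a side, its spread is taken as that of the niche sums. Precursors were compared with mature oligodendrocytes in a second fit with 2 mature sums, committed precursors had too few cells for the planned test, and stem cells against astrocytes were added later with sums of at least 5 cells. On data simulated for the microglia comparison over 6053 genes, 18.7% of 2-fold and 85.4% of 4-fold changes were recovered, and 2.94% of calls were false. The simulation used the same assumed spread for every gene and no difference between experiments. It changed only a small set of genes with many counts. These rates therefore do not carry over to the real comparison or to members with few transcripts.

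Levels were computed as CPM per sum or as pooled CPM (UMIs over all niche cells of a class), with exact Poisson or Clopper-Pearson 95% intervals that cover counting error only. A class at 0 was set to a floor of 3 counts over the group. Classes with a floor over 50 CPM and the mixed erythroid class were not ranked. Members with at least 30 transcripts were described, apart from 3 that are not reported here, and up to 5 called members with the largest changes per comparison were given in full. Members and lists were chosen with earlier results of these data known. Alternatives were DESeq2 1.42.0, its size factors, no filter, no block, deeper wells, UMIs, other clusters and each experiment left out. A series-wide table of selected cells was not used here.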

Additional observations from a re-analysis of the deposited data

Results flagged for a closer look

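Of 44 groups of 4 or 5 experiments examined, 14 had 1 experiment far from the others by Dixon's criterion. Chance gives about 1 in 20 for continuous values, but a single value above 0 among zeros always meets the criterion, as in 7 of the 14, so the 14 cannot be read against that rate. Gpr174 was far higher in experiment 5 than in the others in 3 classes: 261 CPM in microglia (0 to 21.6 in the others), 299 CPM in astrocytes (0 to 7.98) and 185 CPM in precursors (0 to 12.8). Gpr17 in astrocytes was 75.6 CPM in experiment 2 and 0 to 17.7 in the others, and precursor markers in those astrocytes were at 597 CPM in experiment 2 and at 102 to 248 CPM in the others; their part in the result was not tested. In microglia, Gpr84 was 332 CPM in experiment 3 (104 to 133 in the others), Gpr155 was 166 CPM in experiment 3 (209 to 214) and Gpr108 was 139 CPM in experiment 5 (60.3 to 69.7).

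The other 7 were single low values in groups otherwise at 0: Gpr62 at 5.7 CPM in astrocytes of experiment 1, Gpr85 and Gpr183 at 4.4 CPM each in astrocytes of experiment 4, Gpr84 at 3.31 CPM in precursors of experiment 1, Gpr183 at 11.7 CPM in precursors of experiment 2, Gpr123 at 4.35 CPM in microglia of experiment 1 and Gpr162 at 6.35 CPM in microglia of experiment 2.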

How the results depend on the processing

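Of the values of members given in full under alternatives, 0 changed direction, 373 kept and 17 lost their call. A member that did not pass the filter of an alternative, as Gpr98 and Gpr162 with clusters from variable genes, is in neither count. The 373 and 17 therefore give no share of calls that hold. With clusters from variable genes on held-out UMIs, 6 members were called in microglia, 4 in astrocytes, 2 in precursors (Gpr17, Gpr56), 4 in neuroblasts, 2 for neuroblasts against astrocytes (Gpr146, and Gpr17 at 1.38, adjusted p = 0.0468, where the reported fit gave -0.10 and no call), 5 for precursors against mature oligodendrocytes and 0 for stem cells against astrocytes, where neither Gpr98 nor Gpr162 was among the 5 tested; fewer members passed the filter in these fits. With wells of at least 2000 transcripts, 3 members were called in precursors and 3 for neuroblasts against astrocytes. DESeq2 called 5, all higher, for precursors against mature oligodendrocytes. With no filter, 1 member, Gpr174, was called lower in Nestin-GFP astrocytes (adjusted p = 0.00496), with its niche level set by experiment 5. With no replicate block, 1 member (Gpr98) was called for stem cells and no other count moved by over 1.5 times.

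Leaving out 1 experiment at a time gave 9 to 16 calls in microglia, 6 to 9 in astrocytes, 5 to 10 in precursors, 2 to 9 in neuroblasts (2 without experiment 2, 5 without experiment 1), 2 to 8 for neuroblasts against astrocytes (2 without experiment 1, 8 without experiment 5), 2 to 9 for precursors against mature oligodendrocytes (2 without experiment 1) and 1 to 2 for stem cells (1 without experiment 2 or 3). Members in at least 5% of cells numbered 8, 8, 10, 2 and 4 after thinning in microglia, astrocytes, precursors, neuroblasts and mature oligodendrocytes, and 13 to 22 in mature oligodendrocytes with an experiment left out (22 without experiment 1).

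Among single calls, Gpr85 in neuroblasts was lost with DESeq2 (adjusted p = 0.0866) and without experiment 2 (0.0665), Gpr84 in neuroblasts without experiment 1 (0.981), without experiment 2 (0.365) and with no filter (0.0522), Gpr155 in neuroblasts without experiment 2 (0.154), and Gpr108 for neuroblasts against astrocytes with held-out UMIs (0.086); the cause was not tested. In neuroblasts Gpr85 was also not among the members called without experiment 1 or with clusters from variable genes. Gpr84 was not among those called with these clusters either. DESeq2's size factors moved the median of all genes by -0.12 on the log2 scale for neuroblasts against astrocytes and kept all 5 calls there. Depth and cell number limit the 32 members under 30 transcripts, and changes of 2-fold were seldom recovered in simulated data.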
